A study of Mus musculus with 40 samples.

Results

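The genes described here encode the subunits of respiratory complexes III, IV and V together with cytochrome c, and their transcript levels were measured in thigh skeletal muscle. A gene was included if its platform symbol starts with Uqcr, Atp5, Cox4, Cox5, Cox6, Cox7 or Cox8, or is Cyc1 or Cycs. The rule took 51 of the 25697 probes, which stand for 44 of the 16593 genes with a symbol. Of these genes, 9 belong to complex III (with Cyc1), 18 carry complex IV symbols, 16 carry complex V symbols and 1 is cytochrome c. Each gene is represented by its brightest probe unless another probe is named. A probe was tested if its intensity exceeded the median of its own array in at least 20 of the 40 arrays, which 12467 probes and 38 of the 44 genes did (7 of complex III, 14 of complex IV, 16 of complex V and Cycs). One tested gene, Cox7a2l, carries a complex IV name without being counted among the classical subunits. It encodes a factor linked to the joining of complexes III and IV into supercomplexes. Whether the form in these animals does so was not examined.

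The study examined whether the diet of the dam and the diet after weaning change gene expression in male offspring. All animals were C57BL/6J males (written C57BL\6 in the labels) with no engineered allele, and 1 array was hybridised per animal. Dams ate a high-fat (HF) or a low-fat (LF) diet, the sons were weaned at 3 weeks onto either diet, and muscle was taken at 9 weeks. The groups are named with the dam's diet first. HF_HF sons of HF dams ate HF after weaning, LF_HF sons of LF dams ate HF after weaning, HF_LF sons of HF dams ate LF after weaning and LF_LF sons of LF dams ate LF after weaning. Each group held 10 animals, and the 40 animals came from 12 cages, 6 with dams of either diet. By the study's methods, males of a breeding cage were divided between the diets at weaning, but the labels do not say whether their cage number is the breeding cage. Among the arrays, 5 cages hold sons on both diets and 7 hold sons on 1 diet only.

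Complex III passes electrons from ubiquinol to cytochrome c, a small soluble protein that carries them to complex IV. Complex IV, cytochrome c oxidase, reduces oxygen to water, and the proton gradient that complexes III and IV build drives the rotation of complex V, the ATP synthase. Most subunits are encoded in the nucleus, and several complex IV subunits exist as a pair of isoforms, one abundant in heart and skeletal muscle and one expressed widely, often called the liver form. Oxidative slow fibres of skeletal muscle hold more mitochondria than fast glycolytic fibres.

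Members that move together are often compared for shared sequence. Not all called genes are shown here, and Cyc1, Cox5b, Atp5d and Atp5o are among those left out. The promoters shown first are those of some of the genes named in the results. They come from RefSeq on GRCm38.p6, run from 250 bases before to 50 bases after the start and are written 5′ to 3′ on the gene's strand. Cox7a1, Cox7c and Cox6b1 were called between the diets after weaning, and Cox6a1 and Cox8a varied together from animal to animal. The windows lie at chr7:30183921-30184220, plus strand for Cox7a1, at chr13:86046746-86047045, minus strand for Cox7c, at chr7:30626065-30626364, minus strand for Cox6b1, at chr5:115348909-115349208, minus strand for Cox6a1 and at chr19:7217567-7217866, minus strand for Cox8a. Capitals mark any match on either strand to AAGGTCA (a half-site read by estrogen-related receptors), GCATGCG (a core read by NRF1), CCGGAAG (a core read by ETS factors such as GABP) or AAGATGG (a core read by YY1).
Cox7a1: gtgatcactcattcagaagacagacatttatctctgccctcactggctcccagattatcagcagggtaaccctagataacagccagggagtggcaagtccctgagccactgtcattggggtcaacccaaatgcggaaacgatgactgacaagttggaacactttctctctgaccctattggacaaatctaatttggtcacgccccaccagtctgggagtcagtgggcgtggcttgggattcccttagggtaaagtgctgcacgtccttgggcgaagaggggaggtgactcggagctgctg
Cox7c: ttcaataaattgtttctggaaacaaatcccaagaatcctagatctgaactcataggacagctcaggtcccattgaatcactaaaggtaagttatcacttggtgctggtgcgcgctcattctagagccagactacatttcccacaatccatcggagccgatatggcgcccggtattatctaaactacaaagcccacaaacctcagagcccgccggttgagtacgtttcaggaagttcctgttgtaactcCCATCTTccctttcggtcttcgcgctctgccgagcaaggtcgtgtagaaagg
Cox6b1: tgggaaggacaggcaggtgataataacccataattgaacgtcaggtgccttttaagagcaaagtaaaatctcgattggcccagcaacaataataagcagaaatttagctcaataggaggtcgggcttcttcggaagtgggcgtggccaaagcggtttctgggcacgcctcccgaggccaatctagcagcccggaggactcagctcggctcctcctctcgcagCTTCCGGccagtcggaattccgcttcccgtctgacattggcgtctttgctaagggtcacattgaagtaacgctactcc
Cox6a1: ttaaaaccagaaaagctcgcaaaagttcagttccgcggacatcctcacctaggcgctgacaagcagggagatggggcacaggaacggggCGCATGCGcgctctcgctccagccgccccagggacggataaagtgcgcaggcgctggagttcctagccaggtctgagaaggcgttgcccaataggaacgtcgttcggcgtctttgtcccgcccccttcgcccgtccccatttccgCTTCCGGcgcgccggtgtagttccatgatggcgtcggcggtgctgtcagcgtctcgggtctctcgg
Cox8a: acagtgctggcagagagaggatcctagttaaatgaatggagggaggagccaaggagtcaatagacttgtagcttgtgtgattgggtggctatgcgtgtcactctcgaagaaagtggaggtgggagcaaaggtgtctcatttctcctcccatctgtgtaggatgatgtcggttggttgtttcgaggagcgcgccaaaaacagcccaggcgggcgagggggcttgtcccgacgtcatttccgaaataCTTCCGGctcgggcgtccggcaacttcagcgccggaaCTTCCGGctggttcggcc

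The promoter table held 36 windows for 33 of the 44 genes. CCGGAAG was found in 10 of these windows (27.8%) and in 8.86% of all 32851 windows, GCATGCG in 8 (22.2%) and in 3.58% of all, AAGGTCA in 4 (11.1%) and in 4.72% of all, and AAGATGG in 4 (11.1%) and in 6.34% of all. GCATGCG overlaps its own reverse complement by all but 1 base, and both matches in Cox6a1 are such a pair. Among the 8 genes with a window that were called in the pooled comparison of the diets after weaning, Cox6b1 held CCGGAAG and Cox7c held AAGATGG, and the other 6 held none of the 4 motifs. A match is a description of these letters and not a binding site.

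The tissue label was checked against marker genes. Among 10 skeletal muscle markers on the array, Acta1 ranged from 15584 to 31357 intensity units and Ckm averaged 29346. The dimmest were Myod1 with 98.3 to 130.7 units and Myog with 68.6 to 105.1 units, Myog being above the array median in 30 of 40 arrays. Of 7 heart markers, 5 (Myl7, Nppa, Nppb, Ryr2 and Tnni3) stayed at 79.1 or below. The other two heart markers were above the array median in all 40 arrays, Actc1 with 1950 to 10525 units and Myh6 with 90.1 to 359 units. The dim probes that were not tested divided the arrays into a pair of sets with no counterpart in the labels. Array set 1 held 5 HF_HF, 4 LF_HF, 6 HF_LF and 2 LF_LF arrays, and array set 2 held the other 23. Adjusted for group, 6 of the 38 members were called between these sets (4 higher and 2 lower in set 1) against 28.1% of all probes. LF_LF replicates 2 and 5 had the highest lymphocyte scores of all arrays (0.95 and 1.17, mean log2 deviation of the markers, against at most 0.02 in any other), and LF_HF replicate 6 had the highest macrophage score (1.41, against at most 0.61). Results that these arrays move are given with and without them. In whole muscle, fewer cells of a type and less RNA per cell cannot be told apart.

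Of the 6 members that were not tested, 4 belong to complex IV: Cox4i2 (a lung isoform), Cox6b2 and Cox8c (testis isoforms) and Cox7b2 lay between 53.3 and 93.7 units in every array. The probes of Uqcrfs1, the Rieske iron-sulfur protein, and Uqcrq, a small subunit, also stayed low, between 62.4 and 81.2 and between 59.6 and 80.1 units. Low readings describe these probes and do not show that the transcripts are absent.

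In sons of LF dams, 6 of the 38 tested members were higher in LF_HF than in LF_LF and none was lower (limma, Benjamini-Hochberg adjusted p below 0.05). This share compares with 4.18% of all probes called in either direction and 2.4% called higher. The log2 change was above 0 for 37 of the 38 members, against 46.3% of all probes, and its median was 0.11, against -0.01 over all probes. At an unadjusted p below 0.05, 18 members were higher, and the share of all probes at this threshold was not counted. The called members came from all 3 complexes: Cyc1 in complex III, Cox5b, Cox7a1 and Cox7c in complex IV, and Atp5d and Atp5o in complex V. The called changes were small, from 1.08-fold for Cox7c to 1.18-fold for Cyc1.

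Cyc1 encodes cytochrome c1, the subunit that hands electrons to cytochrome c. It ranged from 2894 to 3843 units with a median of 3550 in LF_HF muscle, and from 2721 to 3235 with a median of 2943 in LF_LF muscle. All but 1 LF_HF array, replicate 5, lay above the highest LF_LF array. The log2 change was 0.24 (SE 0.05, adjusted p = 0.0051). Of the other complex III members none was called, the core protein gene Uqcrc1 coming closest with a log2 change of 0.15 (SE 0.05, adjusted p = 0.10). All 7 tested complex III genes had a positive change, from 0.02 to 0.24.

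Cox7a1 encodes the heart and muscle isoform of subunit VIIa. Its intensity was between 12216 and 16618 units with a median of 14280 in LF_HF muscle, and between 10724 and 13475 with a median of 12344 in LF_LF muscle. The ranges overlapped, yet all 10 LF_HF arrays lay above the LF_LF mean, and the log2 change was 0.23 (SE 0.05, adjusted p = 0.013). Cox5b, a zinc-binding subunit of complex IV, had 15584 to 18908 units (median 16700) in LF_HF muscle and 13344 to 16953 (median 14558) in LF_LF muscle, a log2 change of 0.16 (SE 0.05, adjusted p = 0.043). Cox7c, a small membrane subunit, had 12216 to 13344 units (median 13013) in LF_HF muscle and 11239 to 13212 (median 11926) in LF_LF muscle, a log2 change of 0.11 (SE 0.03, adjusted p = 0.049). Both ranges overlapped, and again every LF_HF array exceeded the LF_LF mean.

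Atp5d and Atp5o encode the delta subunit of the F1 part and the oligomycin sensitivity conferring protein of the stator of ATP synthase. Atp5d ranged from 3209 to 4015 units (median 3514) in LF_HF muscle and from 2833 to 3357 (median 3153) in LF_LF muscle, with a log2 change of 0.19 (SE 0.04, adjusted p = 0.014). Atp5o ranged from 300.9 to 359 units (median 323) in LF_HF muscle and from 244.6 to 319.1 (median 290.5) in LF_LF muscle, with a log2 change of 0.18 (SE 0.05, adjusted p = 0.031). All 16 complex V members had a positive change, with a median of 0.10, and the other 14 did not pass the test.

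The calls changed when single cages were left out. By limma, 0 members were called with 1 mean per cage and group, where 1.2% of all probes were. Without cage 4 or without cage 11, 0 members were called, and without cage 6 there was 1. The share of all probes called in the fits without single cages or single arrays is not given here, and these fits hold fewer arrays. Without cage 4, Cyc1 had a log2 change of 0.17 (adjusted p = 0.12). Leaving out LF_HF replicate 3 or LF_LF replicate 4, 6 or 7 left 3 calls each, and Cyc1, Cox7a1 and Atp5d were called in all 20 fits without 1 array. With 1 mean per cage the log2 changes of the 6 genes were between 0.12 and 0.25, against 0.11 to 0.24 over single animals. In the 2 cages of LF dams with sons on both diets, cage 4 (2 LF_HF and 3 LF_LF sons) and cage 11 (3 LF_HF and 2 LF_LF sons), each of the 6 genes was higher on average in the LF_HF sons of its cage. With cage as a fixed block over these 10 arrays, Cyc1 was called (log2 change 0.34, SE 0.06, adjusted p = 0.030) and the other 5 were not. In that fit 0.866% of all probes were called. The slow fibre score is a mean over the 14 tested genes of a slow fibre list. That list also names Myh2 and Mb, which are not confined to slow fibres. The score averaged 0.54 ± 0.49 in LF_HF muscle and -0.38 ± 0.85 in LF_LF muscle (SD, n = 10 each). With this score as a covariate, 0 of the 38 members were called, where 0.489% of all probes were. The median log2 change over the members was 0.09 in that fit, and Cyc1 had a log2 change of 0.21 (SE 0.06, adjusted p = 0.11). The part of fibre type in these changes was not tested. Of 9 tested endothelial markers, 4 were higher and 0 lower in LF_HF than in LF_LF muscle (Emcn, Eng, Flt1 and Sox18), and in the pooled fit 3 were higher. The endothelial score ran from -0.15 to 0.17 in LF_HF muscle and from -0.20 to 0.01 in LF_LF muscle. Of the 3 tested genes on the brown adipocyte list, Cpt1b and Pank1 were higher and Cidea was not called (log2 change 0.15, SE 0.31, adjusted p = 0.85), and Cpt1b is also the muscle form of its enzyme. The part of these cell types in the changes was not tested. Set 2 held 8 of the 10 LF_LF arrays and 6 of the 10 LF_HF arrays. Within array set 1 (6 arrays) 0 members were called, where 0.016% of all probes were. Within array set 2 (14 arrays) 0 members were called, where 0.834% of all probes were. The median log2 change over the members was 0.10 in both sets.

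**Figure D1:**
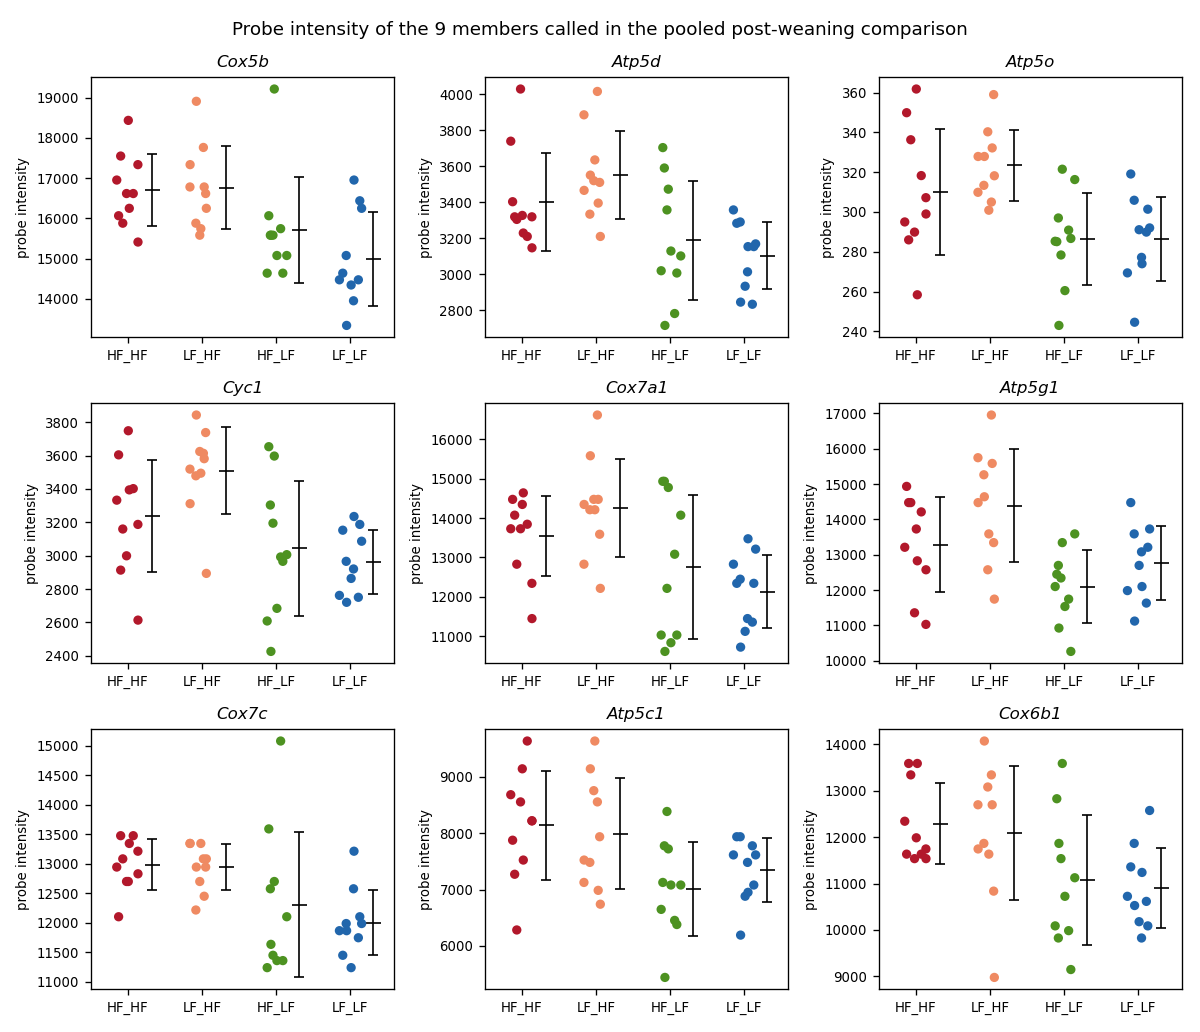
Probe intensity (vertical axis, linear, not starting at 0) of the 9 members called in the pooled comparison of the diets after weaning, by group, with 1 point per animal (n = 10 per group) and the mean and SD beside the points. In the Cyc1 panel all but 1 of the LF_HF points lie above the highest LF_LF point, while the HF_HF and HF_LF points overlap.

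In sons of HF dams, 0 of the 38 members were called between HF_HF and HF_LF muscle (limma), against 0.361% of all probes. At an unadjusted p below 0.05, 4 members were higher in HF_HF muscle, against 11.4% of all probes in either direction. The median log2 change was 0.04, and 29 of 38 members were above 0, against 49.9% of all probes. Atp5c1, the gamma subunit that forms the rotating shaft of ATP synthase, had the smallest p: it ranged from 6282 to 9637 units (median 8220) in HF_HF muscle and from 5440 to 8386 (median 7080.5) in HF_LF muscle, a log2 change of 0.22 (SE 0.08, adjusted p = 0.25). Cox6b1, a subunit facing the intermembrane space, followed with 11537 to 13590 units (median 11866) in HF_HF muscle and 9144 to 13590 (median 10924) in HF_LF muscle, a log2 change of 0.16 (SE 0.06, adjusted p = 0.34). The membrane subunit gene Atp5l, with 2966 to 3749 units (median 3213) in HF_HF muscle and 2751 to 3333 (median 3026) in HF_LF muscle, had a log2 change of 0.13 (SE 0.05, adjusted p = 0.37).

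For the genes called in sons of LF dams, the HF_HF minus HF_LF changes were positive and did not pass the test. Cyc1 had a log2 change of 0.09 (SE 0.08) and Cox7a1 of 0.10 (SE 0.07). The difference between sons of HF and of LF dams was tested by the interaction of both diets, which called 0 members, as it called 0% of all probes. At an unadjusted p below 0.05 it took 1 member, Cox7b, against 5.19% of all probes. Cox7b, a small complex IV subunit, had an interaction of -0.59 on the log2 scale (SE 0.28, adjusted p = 0.91), and Cyc1 one of -0.15 (SE 0.09, adjusted p = 0.91). The median interaction over the 38 members was -0.07, and the interaction was above 0 for 8 of them, against 52.3% of all probes.

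**Figure D2:**
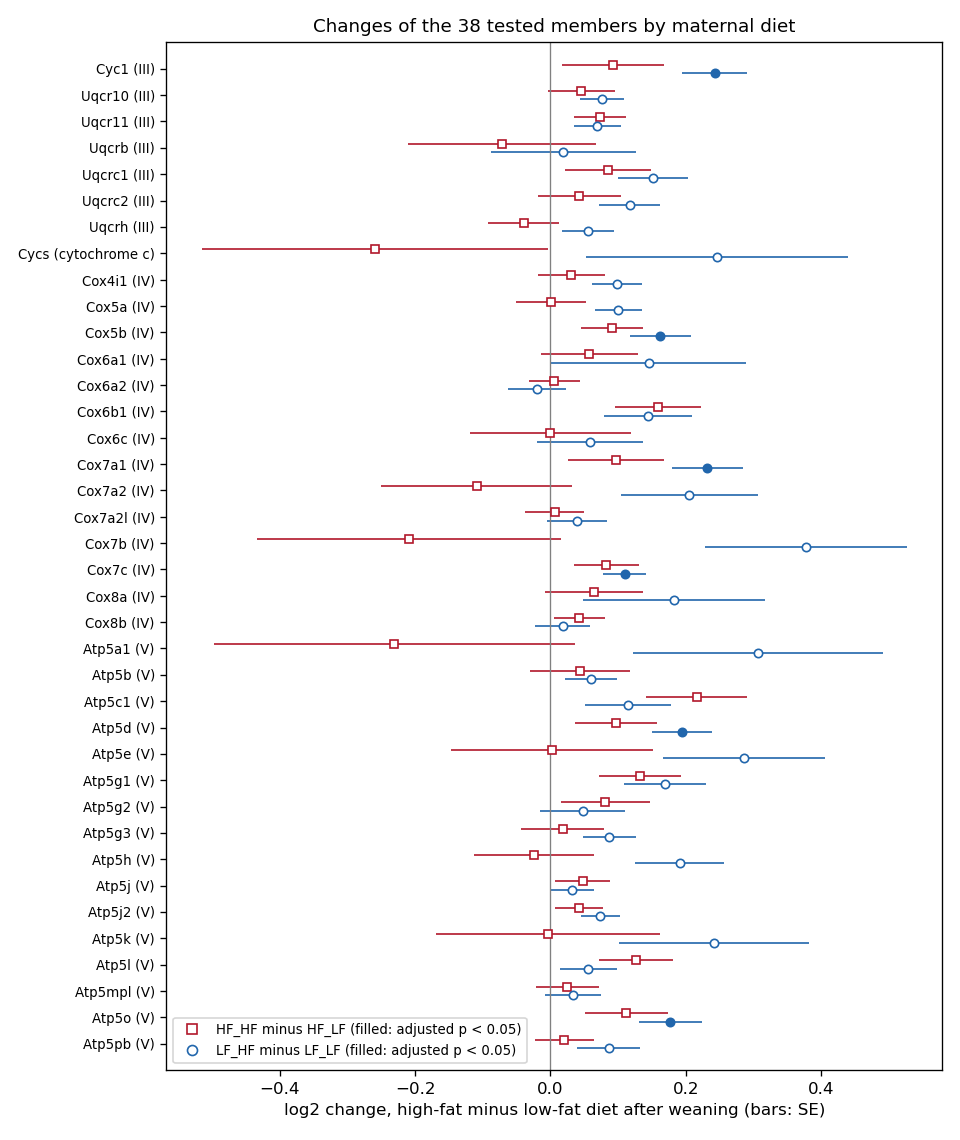
Log2 change (horizontal axis, bars are SE) of the 38 tested members between the HF and the LF diet after weaning, ordered by complex, for sons of HF dams (squares) and of LF dams (circles), with filled symbols at an adjusted p below 0.05. Nearly all circles lie right of 0 and 6 are filled, whereas 29 of the 38 squares lie right of 0 and 0 are filled.

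Pooled over both maternal diets, 9 members were higher on HF after weaning and 0 were lower, against 7.88% of all probes called in either direction and 4.51% called higher. They were the 6 named above with Atp5c1, Cox6b1 and Atp5g1. The median log2 change was 0.07 over the members and -0.01 over all probes, and 35 of 38 members were above 0, against 46.6% of all probes. Cox5b had a log2 change of 0.13 (SE 0.03, adjusted p = 0.0086), Atp5d one of 0.15 (SE 0.04, adjusted p = 0.0092) and Cyc1 one of 0.17 (SE 0.05, adjusted p = 0.014).

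Atp5g1, Atp5g2 and Atp5g3 encode the same mature subunit c, the ring that proton flow turns, and differ in their targeting peptides. Atp5g1 had 11031 to 14934 units (median 13471) in HF_HF, 11746 to 16953 (median 14558) in LF_HF, 10266 to 13590 (median 12223) in HF_LF and 11124 to 14476 (median 12891) in LF_LF muscle. Its ranges overlapped in both pairs, and the pooled log2 change was 0.15 (SE 0.04, adjusted p = 0.024). For Atp5g2 the pooled change was 0.06 (SE 0.05, adjusted p = 0.46) and for Atp5g3 0.05 (SE 0.04, adjusted p = 0.45). Whether the 3 genes differ in their response was not tested.

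Without cage 23, which holds 3 HF_HF and 3 HF_LF sons, 0 members were called in the pooled fit. Without cage 4 there was 1 and without cage 11 there were 4. The share of all probes called in these fits is not given here. In cage 23 the 9 genes were all higher on average in the HF_HF sons, by 0.16 (Atp5d) to 0.39 (Atp5c1) on the log2 scale. Cage 20, with 3 HF_HF sons and 1 HF_LF son, went the other way for 5 of the 9, Cyc1 (-0.23), Cox7a1 (-0.23), Atp5d (-0.17), Cox6b1 (-0.14) and Cox7c (-0.10). In cage 10, with 1 HF_HF son and 2 HF_LF sons, Atp5o (-0.19) and Cox7c (-0.05) were reversed. Over the 5 cages with sons on both diets (23 arrays), with cage as a fixed block, 2 members were called, Cox5b (log2 change 0.17, SE 0.04, adjusted p = 0.033) and Cyc1 (0.25, SE 0.07, adjusted p = 0.0498). In that fit 2.81% of all probes were called. With the slow fibre score as a covariate 0 members were called, where 4.29% of all probes were, Cox5b coming closest with 0.11 (SE 0.03, adjusted p = 0.054). Within array set 1 there were 0, where 0.112% of all probes were called. Within array set 2 there were 2, Atp5d and Atp5o, where 1.65% of all probes were called.

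Cox6b1 and Atp5j have further probes. Of the Cox6b1 probes, the dimmer one (7997 to 11239 units with medians of 9546 in HF_HF, 10034 in LF_HF, 9466 in HF_LF and 9135 in LF_LF) had a pooled log2 change of 0.09 (SE 0.03, adjusted p = 0.069), against 0.15 (SE 0.05, adjusted p = 0.034) for the brighter one. Of the Atp5j probes, for a coupling factor of the stator, a dimmer one with medians of 527 in HF_HF, 537 in LF_HF, 492 in HF_LF and 495 in LF_LF muscle was called in the pooled fit (0.09, SE 0.03, adjusted p = 0.047), whereas the brightest one was not.

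No member was called for maternal diet by limma. The comparison of HF_LF with LF_LF shares its LF_LF arrays with that of LF_HF with LF_LF, and the comparison of HF_HF with LF_HF shares its LF_HF arrays. Between HF_LF and LF_LF muscle 0 were called, against 0.016% of all probes, and 2 reached an unadjusted p below 0.05, against 8.21% of all probes. They were Cox7b, with 317.5 to 885.8 units (median 529) in HF_LF and 257.9 to 503.2 (median 377) in LF_LF muscle (log2 change 0.46, SE 0.17, adjusted p = 0.54), and Atp5k, the e subunit, with 65.6 to 120.5 units (median 104) in HF_LF and 67.9 to 114.3 (median 73) in LF_LF muscle (0.26, SE 0.12, adjusted p = 0.60). The Atp5k probe was dim, above the array median in 7 of 10 HF_LF and 3 of 10 LF_LF arrays. Atp5k was also higher in array set 1 than in array set 2, by 0.64 on the log2 scale (SE 0.07), and set 1 held 6 HF_LF arrays and 2 LF_LF arrays; the part of the array sets in its difference between groups was not tested.

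Between HF_HF and LF_HF muscle 0 members were called, as were 0% of all probes, and 3 had an unadjusted p below 0.05, all lower in HF_HF, against 7.24% of all probes. Cox8a was lower by a log2 change of -0.18 (SE 0.06, adjusted p = 0.46), Cox6a1 by -0.15 (SE 0.07, adjusted p = 0.67) and Atp5j2, the f subunit of ATP synthase, by -0.07 (SE 0.03, adjusted p = 0.67). Pooled over the diets after weaning, 0 members were called between sons of HF and of LF dams, against 0.61% of all probes, and 2 reached an unadjusted p below 0.05, against 9.97% of all probes: Atp5j2 (-0.05, SE 0.02, adjusted p = 0.32) and Atp5g1 (-0.10, SE 0.04, adjusted p = 0.45).

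Complex IV has isoform pairs for several subunits. Cox6a1 and Cox8a encode the widely expressed isoforms of subunits VIa and VIII, and Cox6a2 and Cox8b their heart and muscle isoforms. Cox8a ranged from 947.3 to 1228 units (median 1002.5) in HF_HF, 951 to 1315 (median 1220) in LF_HF, 815 to 1264 (median 990) in HF_LF and 757 to 2112 (median 926) in LF_LF muscle. Cox6a1 ranged from 779 to 1116 (median 910) in HF_HF, 833 to 1167 (median 1060) in LF_HF, 743.5 to 1037 (median 862) in HF_LF and 687 to 1968 (median 847) in LF_LF muscle. The 2 highest LF_LF values of both genes came from replicates 2 and 5, the arrays with the high lymphocyte scores, which also had the 2 highest white adipocyte scores of their group (1.20 and 1.23).

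With all arrays, the LF_HF minus LF_LF change of Cox8a was 0.18 (SE 0.13, adjusted p = 0.53) and that of Cox6a1 0.15 (SE 0.14, adjusted p = 0.65). Without LF_LF replicates 2 and 5 and LF_HF replicate 6, Cox8a had 0.36 (SE 0.07, adjusted p = 0.0085) and Cox6a1 0.34 (SE 0.07, adjusted p = 0.0077), and both were called. Since LF_LF replicates 2 and 5 held the highest LF_LF values of both genes, leaving them out itself lowers the LF_LF mean and raises the difference. Among the 17 remaining arrays 7 members were called, where 3.81% of all probes were, 5 of them among the 6 called with all arrays. In the same 17 arrays the muscle isoforms were not called, Cox8b with 0.02 (SE 0.04, adjusted p = 0.88) and Cox6a2 with 0.00 (SE 0.05, adjusted p = 0.99). The pooled changes without the 3 arrays were 0.21 (SE 0.05, adjusted p = 0.0091) for Cox8a and 0.20 (SE 0.05, adjusted p = 0.011) for Cox6a1, and 6 of the 9 pooled calls were kept, where 6.42% of all probes were called. The part of other cell types in these 2 genes was not tested.

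Cox8a and Cox6a1 followed each other from animal to animal. With group means removed, they correlated with r = 0.91 and rho = 0.80 over 40 arrays (permutation within groups, p = 1e-05 for both, the smallest that 100000 permutations give; adjusted p = 0.00024 and 0.00035 over 703 pairs of members). Without the 2 arrays farthest from the median of Cox6a1, r was 0.79. The dimmer Cox6a1 probe correlated with the brighter one with r = 0.96. A total of 152 other probes correlated with Cox8a by r above 0.7, and after Cox6a1 the most alike were Cidea (r = 0.86), a lipid droplet gene of brown fat, 1700037H04Rik (0.84) and Mgst2 (0.84), with Agpat2 (0.83), an enzyme of triglyceride synthesis, close to them. LF_LF replicate 5 also had the highest brown adipocyte score of all arrays (0.52), whereas LF_LF replicate 2 (0.243) was close to LF_HF replicate 10 (0.241). This score takes in Cidea itself, and of its 6 genes on the array only 3 passed the filter. For subunit VIIa, the muscle isoform Cox7a1 was called and the widely expressed Cox7a2 was not (log2 change 0.21, SE 0.10, adjusted p = 0.30 for LF_HF minus LF_LF). Cox4i1, the widely expressed subunit IV isoform, had a change of 0.10 (SE 0.04, adjusted p = 0.14) in that comparison, and Cox7a2l one of 0.04 (SE 0.04, adjusted p = 0.70). Whether the isoforms of a subunit differ in their change was not tested.

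**Figure D3:**
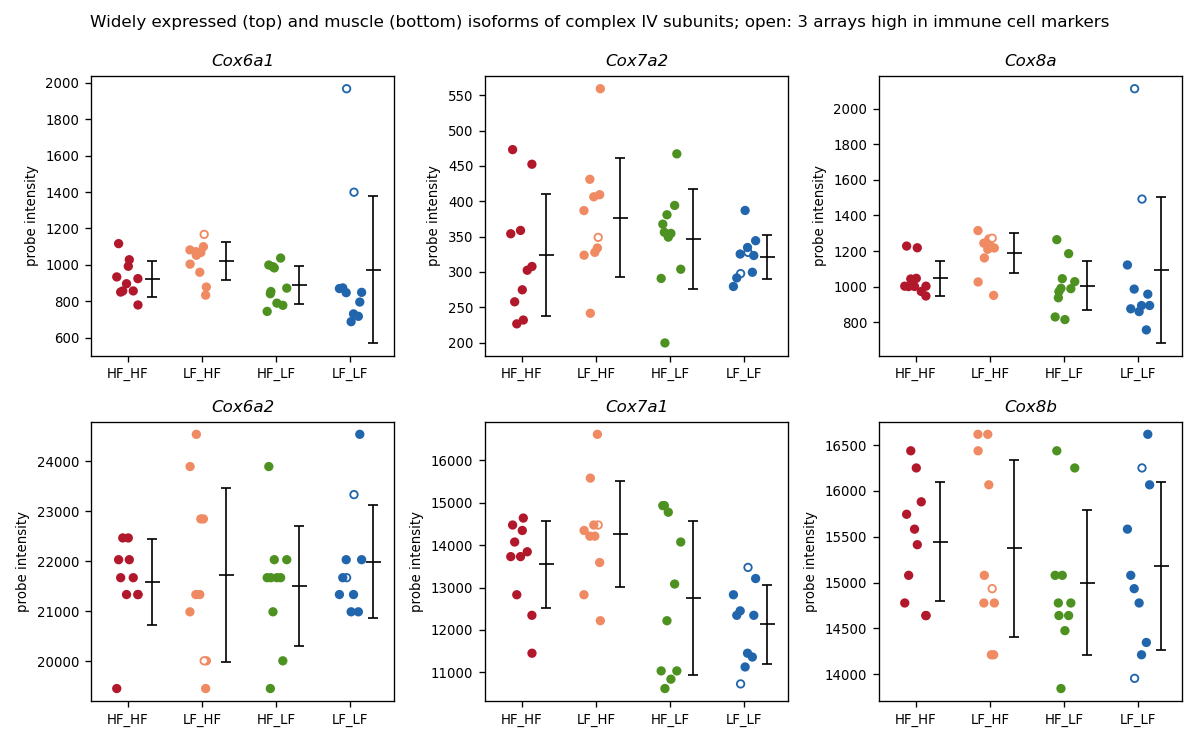
Probe intensity (vertical axis, linear, not starting at 0) of the widely expressed isoforms Cox6a1, Cox7a2 and Cox8a (top) and of the heart and muscle isoforms Cox6a2, Cox7a1 and Cox8b (bottom) by group, with the mean and SD beside the points (n = 10 per group). Open points are LF_LF replicates 2 and 5 and LF_HF replicate 6, and the highest Cox6a1 and Cox8a values of LF_LF muscle are open points.

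Cox7a1, Cox8b and Cox4i1 followed the slow fibre score. Within groups, 3 of the 38 members rose with the score and 0 fell, against 2.64% of all probes called in either direction and 2% rising. The slopes, in log2 units of intensity per unit of the score, were 0.10 for Cox7a1 (SE 0.03, adjusted p = 0.034), 0.06 for Cox8b (SE 0.02, adjusted p = 0.036) and 0.06 for Cox4i1 (SE 0.02, adjusted p = 0.045). At an unadjusted p below 0.05 the slope was positive for 9 members, and the share of all probes at this threshold was not counted. The slope was above 0 for 34 of the 38 members, against 43.9% of all probes. The 3 calls were lost when the arrays with high immune markers were left out (37 arrays), with adjusted p = 0.051, 0.060 and 0.058 for Cox7a1, Cox8b and Cox4i1, and Cox8a was called in their place (0.11, SE 0.03, adjusted p = 0.036), where 2.93% of all probes were called. No member was called by limma without cage 4, 6, 8, 12 or 23, and 1 was called without cage 10 or 11. The share of all probes called in these fits is not given here.

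**Figure D4:**
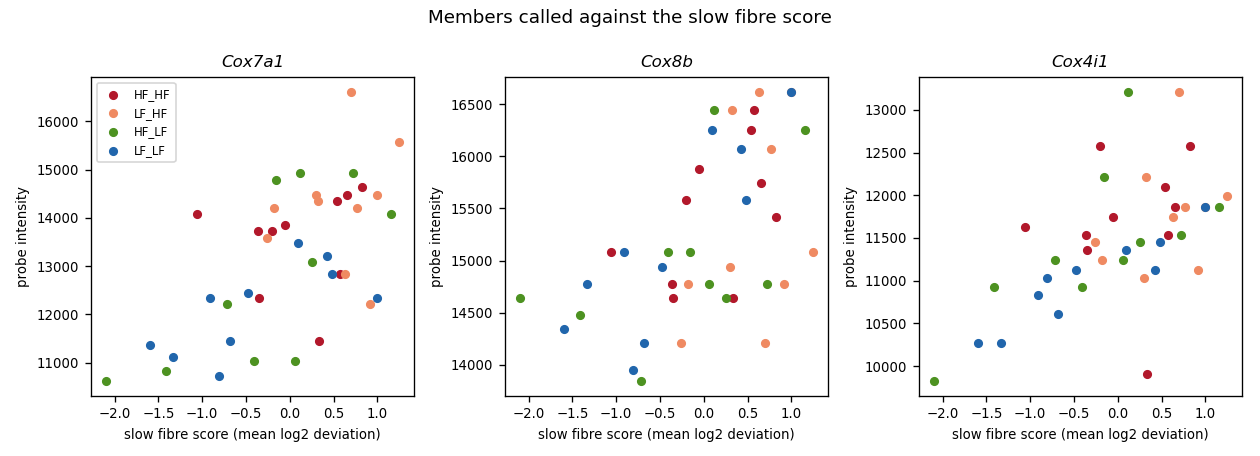
Probe intensity (vertical axis, linear, not starting at 0) of Cox7a1, Cox8b and Cox4i1 against the slow fibre score (horizontal axis). The score is the mean log2 deviation of 14 genes on the slow fibre list, and each point is 1 animal coloured by group. The slopes within groups were 0.10, 0.06 and 0.06 log2 units per unit of the score for Cox7a1, Cox8b and Cox4i1.

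The members varied between animals of 1 group by very different amounts. The within-group SD on the log2 scale ran from 0.06 for Atp5j2 to 0.58 for Atp5a1, with a median of 0.12, close to the 0.13 of all tested probes. It exceeded 0.25 for 9 members and for 8.44% of all tested probes. Atp5a1, the alpha subunit of the F1 part, ranged from 1004 to 3419 units (median 1407) in HF_HF, 1116 to 4584 (median 1935) in LF_HF, 842.5 to 4601 (median 2112) in HF_LF and 1223 to 2382 (median 1506) in LF_LF muscle. Cytochrome c itself, Cycs, ranged from 171.9 to 556.8 (median 286) in HF_HF, 210.3 to 834.8 (median 347) in LF_HF, 176.1 to 804.7 (median 406) in HF_LF and 245.2 to 516.2 (median 287) in LF_LF muscle. Neither gene was called in any comparison, and all ranges overlapped.

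Many of the variable members moved together, though not all. After their values had been seen, the 8 members that include Atp5a1 and those that correlate with it by r above 0.7 were taken as a group: Atp5a1, Atp5e, Atp5h, Cox6c, Cox7a2, Cox7b, Cycs and Uqcrb. Being chosen so, they are described without a test. They hold 6 of the 9 members with an SD above 0.25; Atp5k, Cox6a1 and Cox8a also exceeded it but had r of 0.38, -0.08 and -0.01 with Atp5a1, while Cox6c (SD 0.25) and Atp5h (SD 0.18) lay below it. Their r values with each other ran from 0.52 to 0.93, against a median of 0.15 over all 703 pairs. They come from all 3 complexes and cytochrome c, and their highest and lowest arrays differed 2.1-fold (Cox6c) to 5.5-fold (Atp5a1). The mean log2 deviation of the 8 genes ran from -0.54 to 0.53 in HF_HF, -0.42 to 0.84 in LF_HF, -0.66 to 0.81 in HF_LF and -0.32 to 0.26 in LF_LF muscle, so that the groups overlapped, and its medians in array sets 1 and 2 were 0.10 and -0.15. In all, 642 other tested probes also correlated with Atp5a1 by r above 0.7, and 105 by r below -0.7. The 5 most like it were Gng5 (r = 0.96), a G protein subunit, Dld (0.96), a subunit shared by mitochondrial dehydrogenases, the complex I gene Ndufb5 (0.95), Naa20 (0.94), part of an N-terminal acetyltransferase, and Actl6a (0.94), an actin-like protein of chromatin complexes.

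Cycs has 2 probes, and they did not read alike. The dimmer one, with medians of 204 in HF_HF, 213 in LF_HF, 198.5 in HF_LF and 196 in LF_LF muscle, correlated with the brighter one by r = 0.49. For LF_HF minus LF_LF the dimmer probe had a log2 change of 0.13 (SE 0.05, adjusted p = 0.15) and the brighter one 0.25 (SE 0.19, adjusted p = 0.56). The 9 members called in the pooled fit correlated with each other by a median r of 0.35 and with the 8 members of the Atp5a1 group by a median r of -0.04.

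**Figure D5:**
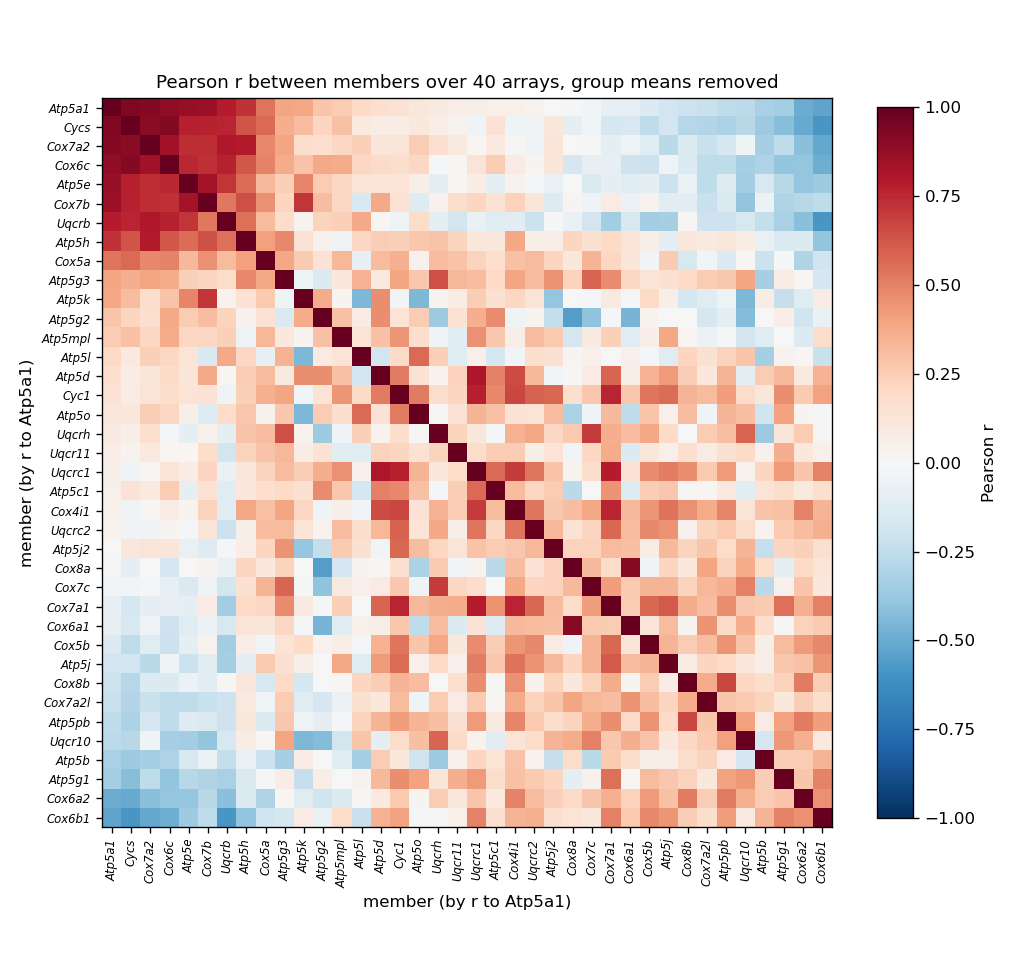
Pearson r between the 38 tested members over 40 arrays with group means removed, with members on both axes ordered by r to Atp5a1 and colour giving r from -1 to 1. Atp5a1 and the 7 members with r above 0.7 to it form the red square at the upper left, with r from 0.52 to 0.93, and Cox6a1 with Cox8a is the darkest cell pair elsewhere.

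Other genes of oxidative phosphorylation are given from lists of their symbols. Of the 33 tested genes on the complex I list, 3 were higher in LF_HF than in LF_LF muscle and 0 lower. Of all probes 2.4% were higher, and the median log2 change of the list was 0.10. The 3 genes were Ndufa8 (0.28, SE 0.05, adjusted p = 0.0022), Ndufs8 (0.13, SE 0.03, adjusted p = 0.022) and Ndufa3 (0.19, SE 0.05, adjusted p = 0.036). The list also names Ndufa4, now placed in complex IV. Of the 3 tested complex II subunits, 1 was higher, Sdhb (0.23, SE 0.05, adjusted p = 0.019), the iron-sulfur subunit. Of 21 assembly and maturation factors of complexes III, IV and V, 2 were higher and 0 lower, Cox19 (0.32, SE 0.05, adjusted p = 0.00058) and Coa4 (0.25, SE 0.05, adjusted p = 0.0073), both linked to the assembly of complex IV. In the pooled fit 5 genes of the complex I list, 0 complex II subunits and 7 of these factors were higher and none was lower. Of all probes 4.51% were higher in that fit. For HF_HF minus HF_LF none of the 3 lists had a called gene.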

How the data were processed

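Thigh muscle RNA of 40 animals was hybridised to Illumina MouseRef-8 v2.0 beadchips, 1 array per animal. The authors quantile-normalised the fluorescence over all 40 arrays, and the deposited values are intensity units on a linear scale, without detection p-values. The submitters' processing notes name BeadStudio, with no version given in the sources used here. Because no background had been subtracted to 0, fold changes of dim probes are understated. For arrays, precision is limited by the number of animals, 10 per group.

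Intensities were taken as log2 without an offset. Each pair of groups was fitted on its 20 arrays, and the interaction, the pooled contrasts and the slope on all 40, with limma 3.58.1 (lmFit and eBayes with an intensity trend) in R 4.3.3. Tests were two-sided, with Benjamini-Hochberg adjustment across all 12467 probes that passed the filter, and members with an adjusted p below 0.05 are called. The main fits treat animals of 1 cage as independent. The fits were tested on simulated data with known changes, drawn independently for each probe and array. These data held no effect of cage or array set, so that test says nothing about either. Symbols came from the platform annotation, and all 44 equal those of the GRCm38.p6 gene table. The table has 0 sample columns that were not used.

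Named were up to 8 called members of smallest p per comparison, the 3 of smallest p where fewer than 3 were called, isoform pairs, Atp5g genes, Cyc1, Cycs, Cox7a2l and members below the filter; Atp5a1, Uqcrc1 and the variable members were singled out after their values were seen. The members, lists and tests were chosen with earlier results of these data known. Alternatives covered the filter, an offset of 50, background subtraction (percentile 5 removed, 16 added), the variance model, array weights, array set, cage, fibre score and arrays left out; the fits within each array set were added after seeing the data.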

Additional observations from a re-analysis of the deposited data

Results flagged for a closer look

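In 22 named members, the highest and lowest array of each group was compared with the group's range on the log2 scale, 88 groups of values in all, and 5 stood apart; chance alone sets apart about 1 in 20 groups. Cyc1 in LF_HF replicate 5 was low (2894 units, next 3312, gap over range 0.475), and Cox7b in the same animal was high (910 units, next 544, gap over range 0.51). Cox4i1 in HF_HF replicate 6 was low (9903 units, next 11358, gap over range 0.574). Cox6a2 in HF_HF replicate 9 was low (19451 units, next 21330, gap over range 0.641). Cox5b in HF_LF replicate 3 was high (19213 units, next 16067, gap over range 0.658).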

How the results depend on the processing

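Brackets give the share of all probes called in the same fit. The fits without single cages or single arrays carry no such share, so their counts have no comparison with all probes. The 6 calls of LF_HF minus LF_LF (4.18%) fell to 3 with no filter on low values (1.24%). They fell to 1 with cage as a fixed block in cages with both diets (0.866%). There were 0 with 1 mean per cage and group (1.2%) and with the slow fibre score as a covariate (0.489%). Within array set 1 (0.016%) and within array set 2 (0.834%) there were also 0. Leaving out single cages gave 0 to 5 calls and leaving out single arrays 3 to 8. The 9 calls of the pooled post-weaning diet (7.88%) became 2 with cage as a fixed block (2.81%) and 0 with the slow fibre score (4.29%). They became 0 within array set 1 (0.112%), 2 within array set 2 (1.65%) and 0 to 11 without single cages. The 3 calls of the slope (2.64%) became 0 with no filter (0.926%) and 1 with no intensity trend (2.62%). There was 1 (2.93%) when LF_LF replicates 2 and 5 and LF_HF replicate 6, with their high immune marker scores, were left out. Without single cages there were 0 to 3. Fewer samples or more probes tested go with some of these settings, and the cause was not tested. The other planned settings kept these 3 counts within 1.5 times, and the 5 comparisons with 0 calls stayed at 0 under every setting run. No called member changed direction under any setting. No paired analysis was possible because replicate numbers follow only the order of the samples; cage fits took its place. Signal limits the 6 members that were not tested and Atp5k, above the array median in 23 of 40 arrays.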
